A study of Mus musculus with 12 samples.

Results

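Across 12 RNA sequencing libraries of the mouse macrophage line RAW 264.7, 10 genes stood apart in the libraries labelled as an Ing4 knockout. They are Tanc1, Chchd10, Lamb2, Tmem98, Gpr179 and Cep170b, which were lower in the Ing4 knockout than in wild type, and Sema5a, Agap2, Hoxc4 and Cds1, which were higher. They make up 10 of the 54232 genes in the count table. They were chosen by their read counts in these same 12 libraries, as genes higher or lower in the Ing4 knockout than in wild type or in the Socs1 knockout. Differences between genotypes are therefore given for them as descriptions, without a test. All 10 passed the filter on low counts that left 12771 tested genes. Agap2 and Hoxc4 were near 0 in wild type, so they could pass it through the knockouts.

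The groups were the Ing4 knockout, the Socs1 knockout and wild type, each exposed to lipopolysaccharide (LPS) at 100 ng/ml for 3 h or left untreated, with 2 libraries in each of the 6 groups. All came from RAW 264.7 cells, although the treatment text in the labels names HEK293T, a human line. The labels give no clone, so loss of the gene and a difference between cell lines cannot be told apart. Whether the 2 libraries of a group are separate cultures is not stated either, and p-values then measure the spread between these samples, which may be technical. Library totals ran from 17250815 to 24377950 counts. Levels are in CPM, read counts divided by the scaled library size, with SD over n = 2 libraries. In such bulk samples, fewer cells expressing a gene and less RNA per cell cannot be told apart.

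ING4 is known as a reader of histone methylation that belongs to an acetyltransferase complex, and SOCS1 as a feedback inhibitor of cytokine signalling. LPS is sensed by Toll-like receptors on macrophages and turns on inflammatory genes. The 10 genes are not classical inflammatory genes. They encode proteins of scaffolds, basement membrane, mitochondria, membranes, lipid synthesis and transcription, several of them best known from neurons or the retina.

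Counts of the targeted gene Ing4 were low in every genotype, wild type included, so they cannot be used to check the label. Ing4 had 6 and 10 counts after LPS and 6 and 29 counts untreated in the Ing4 knockout, 14 and 3 after LPS and 19 and 28 untreated in the Socs1 knockout, and 6 and 2 after LPS and 10 and 5 untreated in wild type. In the libraries labelled Ing4 knockout it averaged 0.419 CPM after LPS and 0.799 CPM untreated, above the 0.212 and 0.333 CPM of wild type, with overlapping libraries. Gm44597 covers 99.4% of the Ing4 span on the same strand, so these low counts are uncertain. Here Ing4 knockout means the libraries so labelled, and every direction given for them rests on that label. Macrophage identity was clear, with all 12 macrophage markers detected in at least 1 library. Their summed levels were 15103 to 25584 CPM in the Ing4 knockout, 14352 to 15716 in the Socs1 knockout and 13395 to 16043 in wild type. Lyz2 alone reached 17000 CPM in an untreated Ing4 knockout library. Mertk was at 0 CPM in the first Socs1 knockout library of each treatment. Lymphocyte markers summed to at most 0.348 CPM in any library, with 6 of 9 at 0 throughout. Markers of fibroblasts, epithelium and red cells summed to at most 0.169 CPM, and those of neutrophils and early myeloid cells to at most 3.27 CPM. Neural markers, of which 3 of 6 were at 0 throughout, summed to 46.1 to 167 CPM in the Ing4 knockout, 51.2 to 160 in the Socs1 knockout and 56 to 157 in wild type. A single gene reached 166 CPM of that sum, and the rest of the list summed to at most 2.28 CPM. On the first principal component, which held 54.4% of the variance of log2 CPM, the first Socs1 knockout library given LPS was at -16.2 and the other LPS-treated libraries were at 62.4 to 74.4. Untreated libraries lay at -66.1 to -41.7. Leaving out that library moved the log2 differences of the 10 genes between the Ing4 knockout and wild type, and their LPS responses in those genotypes, by at most 0.01. It moved their LPS responses in the Socs1 knockout by at most 0.30. Their differences between the Ing4 and Socs1 knockouts after LPS also moved by at most 0.30. The counts of called genes over all genes depended on that library as well, as given at the end.

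The 10 genes lie on 7 chromosomes. Where a pair shares a chromosome, its members are far apart: 51.1 Mb between Chchd10 and Agap2, 16.5 Mb between Tmem98 and Gpr179, and 70.3 Mb between Sema5a and Hoxc4. RefSeq promoter windows of 300 bases on GRCm38.p6 were found for all 10 genes, 11 windows in all, since Tanc1 has a pair. Shown 5′ to 3′, with each CG dinucleotide in capitals, are those of Tanc1 and Chchd10, which had the lowest levels relative to wild type, and of Sema5a and Agap2, which lay above both other genotypes.
Tanc1, upstream window (plus strand, chr2:59611792-59612091): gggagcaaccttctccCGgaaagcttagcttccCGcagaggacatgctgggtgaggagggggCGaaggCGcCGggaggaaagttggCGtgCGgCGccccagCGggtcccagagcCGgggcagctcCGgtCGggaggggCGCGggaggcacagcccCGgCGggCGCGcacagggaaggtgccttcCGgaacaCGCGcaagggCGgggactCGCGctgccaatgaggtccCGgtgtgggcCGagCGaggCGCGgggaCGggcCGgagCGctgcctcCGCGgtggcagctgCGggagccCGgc
Tanc1, downstream window (plus strand, chr2:59646519-59646818): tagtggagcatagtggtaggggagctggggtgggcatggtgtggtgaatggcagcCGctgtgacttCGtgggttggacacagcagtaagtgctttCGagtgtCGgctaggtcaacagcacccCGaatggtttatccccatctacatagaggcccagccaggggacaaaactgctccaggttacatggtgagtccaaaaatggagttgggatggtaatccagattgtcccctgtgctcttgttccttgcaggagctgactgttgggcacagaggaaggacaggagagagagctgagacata
Chchd10 (plus strand, chr10:75932880-75933179): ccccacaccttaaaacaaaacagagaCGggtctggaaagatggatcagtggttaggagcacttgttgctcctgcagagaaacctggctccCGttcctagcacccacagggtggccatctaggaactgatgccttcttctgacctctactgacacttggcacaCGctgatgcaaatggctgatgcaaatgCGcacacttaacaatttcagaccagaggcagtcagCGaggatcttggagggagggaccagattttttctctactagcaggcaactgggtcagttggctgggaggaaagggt
Sema5a (plus strand, chr15:32244563-32244862): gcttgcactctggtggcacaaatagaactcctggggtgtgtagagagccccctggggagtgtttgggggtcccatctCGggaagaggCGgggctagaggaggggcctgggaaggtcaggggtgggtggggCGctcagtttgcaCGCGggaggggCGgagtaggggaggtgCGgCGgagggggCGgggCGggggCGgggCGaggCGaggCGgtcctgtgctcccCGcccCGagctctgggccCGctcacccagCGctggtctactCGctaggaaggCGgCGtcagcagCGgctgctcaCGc
Agap2 (plus strand, chr10:127078657-127078956): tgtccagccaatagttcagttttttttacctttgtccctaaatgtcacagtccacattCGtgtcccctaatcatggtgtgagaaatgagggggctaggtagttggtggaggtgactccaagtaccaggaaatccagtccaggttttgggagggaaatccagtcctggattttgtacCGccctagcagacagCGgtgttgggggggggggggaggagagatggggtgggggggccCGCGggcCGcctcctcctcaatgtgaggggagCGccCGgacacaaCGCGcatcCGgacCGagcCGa
The upstream Tanc1 window holds 36 CG dinucleotides, the downstream one 5, and the Chchd10 window 5. The Sema5a window holds 23 and the Agap2 window 13. The Agap2 window lies inside the annotated gene, downstream of its first start at 127075284. Over the 11 windows the median was 13 CG dinucleotides, against 7 over all 32851 RefSeq windows of the same length, and the range ran from 2 in Gpr179 to 46 in Cds1. A GC box, GGGCGG on either strand, was found in 8 of the 11 windows and in 35.7% of all windows. The core GAGGAA bound by PU.1, a macrophage transcription factor, was in 6 of 11 windows and in 28.3% of all. CCAAT was in 4 of 11 and in 37.4%. The E-box CACGTG was in 1 of 11 and in 7.15%. Neither TATAAA nor the AP-1 motif TGANTCA was in any of the 11, against 13.6% and 7.81% of all windows. These letter matches are descriptions and not binding sites.

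Tanc1 (ENSMUSG00000035168, chromosome 2, 59612042 to 59846149, plus strand, GRCm38) encodes a scaffold with ankyrin repeats that is known from synapses. It had 1.38 and 2.05 CPM after LPS and 2.27 and 1.66 CPM untreated in the Ing4 knockout. It had 44.9 and 30.6 CPM after LPS and 41.5 and 43.1 CPM untreated in the Socs1 knockout, and 36.3 and 47.6 CPM after LPS and 55.5 and 58.4 CPM untreated in wild type. All 4 Ing4 knockout libraries lay below all 8 others. The Socs1 knockout overlapped wild type after LPS and lay below it untreated. The mean over the Ing4 knockout libraries was 0.0372 of the wild-type mean and 0.0459 of the Socs1 knockout mean. The log2 difference from wild type was -4.62 (SE 0.302) after LPS and -4.85 (SE 0.302) untreated.

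Lamb2 (ENSMUSG00000052911, chromosome 9, 108479736 to 108490530, plus strand) encodes a laminin beta chain of basement membranes. Its level was 0.166 to 0.392 CPM over the Ing4 knockout libraries, or 3 to 9 counts, against 3.88 to 4.86 CPM in the Socs1 knockout and 4.08 to 4.67 CPM in wild type. The Ing4 knockout libraries lay below all 8 others, and the means of the Socs1 knockout and wild type differed by a ratio of 1.01. The log2 difference of the Ing4 knockout from wild type was -4.58 (SE 0.417) after LPS and -3.88 (SE 0.388) untreated. The untreated value rested on 9 and 4 counts and was -4.52 without the first untreated Ing4 knockout library.

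Cep170b (ENSMUSG00000072825, chromosome 12, 112720455 to 112746592, plus strand) encodes a relative of the centrosomal protein CEP170. It had 0.998 and 1.77 CPM after LPS and 1.79 and 2.63 CPM untreated in the Ing4 knockout. It had 8.88 and 6.35 CPM after LPS and 8.11 and 10.2 CPM untreated in the Socs1 knockout, and 9.3 and 12.7 CPM after LPS and 14.7 and 18.8 CPM untreated in wild type. The Ing4 knockout was lowest in every library, and the Socs1 knockout lay between it and wild type within each treatment, although its untreated libraries reached the range of LPS-treated wild type. The log2 difference of the Ing4 knockout from wild type was -2.99 (SE 0.38) after LPS and -2.92 (SE 0.37) untreated, and that of the Socs1 knockout from wild type was -0.53 and -0.87. The microRNA gene Mir6940 lies within Cep170b on the same strand.

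Chchd10 (ENSMUSG00000049422, chromosome 10, 75933130 to 75937747, plus strand) encodes a protein of the mitochondrial intermembrane space. It had 0.475 and 0.111 CPM after LPS and 0.349 and 0.277 CPM untreated in the Ing4 knockout, which is 10, 2, 8 and 6 counts. It had 5.42 and 5.96 CPM after LPS and 4.77 and 6.62 CPM untreated in the Socs1 knockout, and 8.38 and 10.5 CPM after LPS and 9.22 and 11 CPM untreated in wild type. The 3 genotypes formed separate ranges, with the Socs1 knockout between the others at 0.582 of the wild-type mean. The log2 difference of the Ing4 knockout from wild type was -4.95 (SE 0.512) after LPS and -4.99 (SE 0.506) untreated. The value after LPS became -6.34 without the first LPS-treated Ing4 knockout library. Mmp11 and Gm867 overlap Chchd10 on the minus strand, and the labels name a stranded kit but not the strand setting of the counting.

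Tmem98 and Gpr179 shared another pattern, lowest in the Ing4 knockout and highest in the Socs1 knockout. Tmem98 (ENSMUSG00000035413, chromosome 11, 80810175 to 80822033, plus strand) encodes a membrane protein known to bind the transcription factor MYRF in the endoplasmic reticulum. It had 5.37 and 5.09 CPM after LPS and 5.06 and 5.53 CPM untreated in the Ing4 knockout. It had 32.8 and 28.8 CPM after LPS and 31.1 and 27.3 CPM untreated in the Socs1 knockout, and 24.8 and 19.5 CPM after LPS and 18.3 and 18.8 CPM untreated in wild type. No 2 genotypes overlapped. The Ing4 knockout mean was 0.175 of the Socs1 knockout mean and 0.259 of the wild-type mean, and the Socs1 knockout mean was 1.48 times that of wild type.

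Gpr179 (ENSMUSG00000070337, chromosome 11, 97332109 to 97352077, minus strand) encodes an orphan receptor known for holding signalling regulators at retinal bipolar cell synapses. It had 5.8 and 6.2 CPM after LPS and 6.19 and 6.08 CPM untreated in the Ing4 knockout. It had 36 and 33 CPM after LPS and 37.3 and 29.1 CPM untreated in the Socs1 knockout, and 18.3 and 17.5 CPM after LPS and 16.8 and 21.8 CPM untreated in wild type. The 3 genotypes again formed separate ranges, and the Ing4 knockout libraries were close to each other. The mean of the Ing4 knockout was 0.179 of that of the Socs1 knockout and 0.326 of that of wild type, and the mean of the Socs1 knockout was 1.82 times that of wild type. The log2 difference of the Ing4 knockout from wild type was -1.58 after LPS and -1.65 untreated for Gpr179 (SE 0.201 each), and -2.08 (SE 0.192) and -1.81 (SE 0.19) for Tmem98.

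Sema5a (ENSMUSG00000022231, chromosome 15, 32244810 to 32696341, plus strand) encodes a transmembrane semaphorin, a guidance cue read by plexin receptors. It had 86.1 and 106 CPM after LPS and 112 and 89.8 CPM untreated in the Ing4 knockout. It had 5.5 and 5.85 CPM after LPS and 5.98 and 6.92 CPM untreated in the Socs1 knockout, and 9.78 and 6.8 CPM after LPS and 14.5 and 10.5 CPM untreated in wild type. Every Ing4 knockout library was above every other library, and the Socs1 knockout was below wild type within each treatment. The Ing4 knockout mean was 9.49 times the wild-type mean and 16.3 times the Socs1 knockout mean. The log2 difference of the Ing4 knockout from wild type was 3.54 (SE 0.259) after LPS and 3.01 (SE 0.251) untreated, while that of the Socs1 knockout from wild type was -0.55 and -0.95. The antisense gene 4930465K09Rik overlaps Sema5a.

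Agap2 (ENSMUSG00000025422, chromosome 10, 127075284 to 127093169, plus strand) encodes a GTPase-activating protein for ARF that is also known as an enhancer of phosphoinositide kinase signalling. It had 11.5 and 5.76 CPM after LPS and 11.8 and 7.01 CPM untreated in the Ing4 knockout. It had 0.693 and 0.562 CPM after LPS and 1.17 and 0.498 CPM untreated in the Socs1 knockout, and 0.161 and 0.152 CPM after LPS and 0.176 and 0.317 CPM untreated in wild type. The 3 genotypes did not overlap, and the Socs1 knockout mean was 3.63 times the wild-type mean. In the Ing4 knockout the first library exceeded the second by a ratio of 2 after LPS and 1.68 untreated, the widest relative spread among the 4 genes that were higher there. Wild type had 3 to 7 counts per library. The ratio of summed counts, Ing4 knockout over wild type and scaled for library size, was 56.5 after LPS (95% counting interval 25.7 to 155) and 38.6 untreated (21.3 to 77.8), intervals that cover counting error only.

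Hoxc4 (ENSMUSG00000075394, chromosome 15, 103018934 to 103036852, plus strand) encodes a homeobox transcription factor known for patterning the body axis. It had 2 and 1.77 CPM after LPS and 2.09 and 2.21 CPM untreated in the Ing4 knockout. It had 1.51 and 2.31 CPM after LPS and 2.21 and 2.04 CPM untreated in the Socs1 knockout, and 0.215 and 0.0507 CPM after LPS and 0.132 and 0.0453 CPM untreated in wild type. Both knockouts lay above wild type in every library and overlapped each other, so Hoxc4 did not set the Ing4 knockout apart from the Socs1 knockout. The log2 difference between the knockouts was -0.01 (SE 0.475) after LPS and 0.02 (SE 0.469) untreated. Wild-type libraries held 1 to 4 counts, and leaving out 1 library gave log2 differences of the Ing4 knockout from wild type of 3.10 to 5.06 after LPS and 3.97 to 5.40 untreated. The ratio of summed counts, Ing4 knockout over wild type, was 14.5 after LPS (95% counting interval 5.94 to 46) and 24.1 untreated (9.12 to 90.3).

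Cds1 (ENSMUSG00000029330, chromosome 5, 101765130 to 101823858, plus strand) encodes an enzyme that makes CDP-diacylglycerol, the precursor of phosphatidylinositol, from phosphatidic acid. It had 11.1 and 10.6 CPM after LPS and 14.8 and 17.4 CPM untreated in the Ing4 knockout. It had 7.87 and 6.69 CPM after LPS and 8.67 and 11.8 CPM untreated in the Socs1 knockout, and 3.87 and 2.84 CPM after LPS and 4.35 and 2.85 CPM untreated in wild type. Both knockouts were above wild type without overlap. The Ing4 knockout was above the Socs1 knockout within each treatment, and the knockouts overlapped only between LPS-treated Ing4 and untreated Socs1 knockout libraries. The Ing4 knockout mean was 3.87 times and the Socs1 knockout mean 2.52 times the wild-type mean. The log2 difference from wild type was 1.69 (SE 0.294) after LPS and 2.16 (SE 0.296) untreated in the Ing4 knockout, and 1.12 (SE 0.292) and 1.50 (SE 0.291) in the Socs1 knockout. The unverified genes Gm43273 and Gm43272 overlap Cds1 on the same strand.

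**Figure D1:**
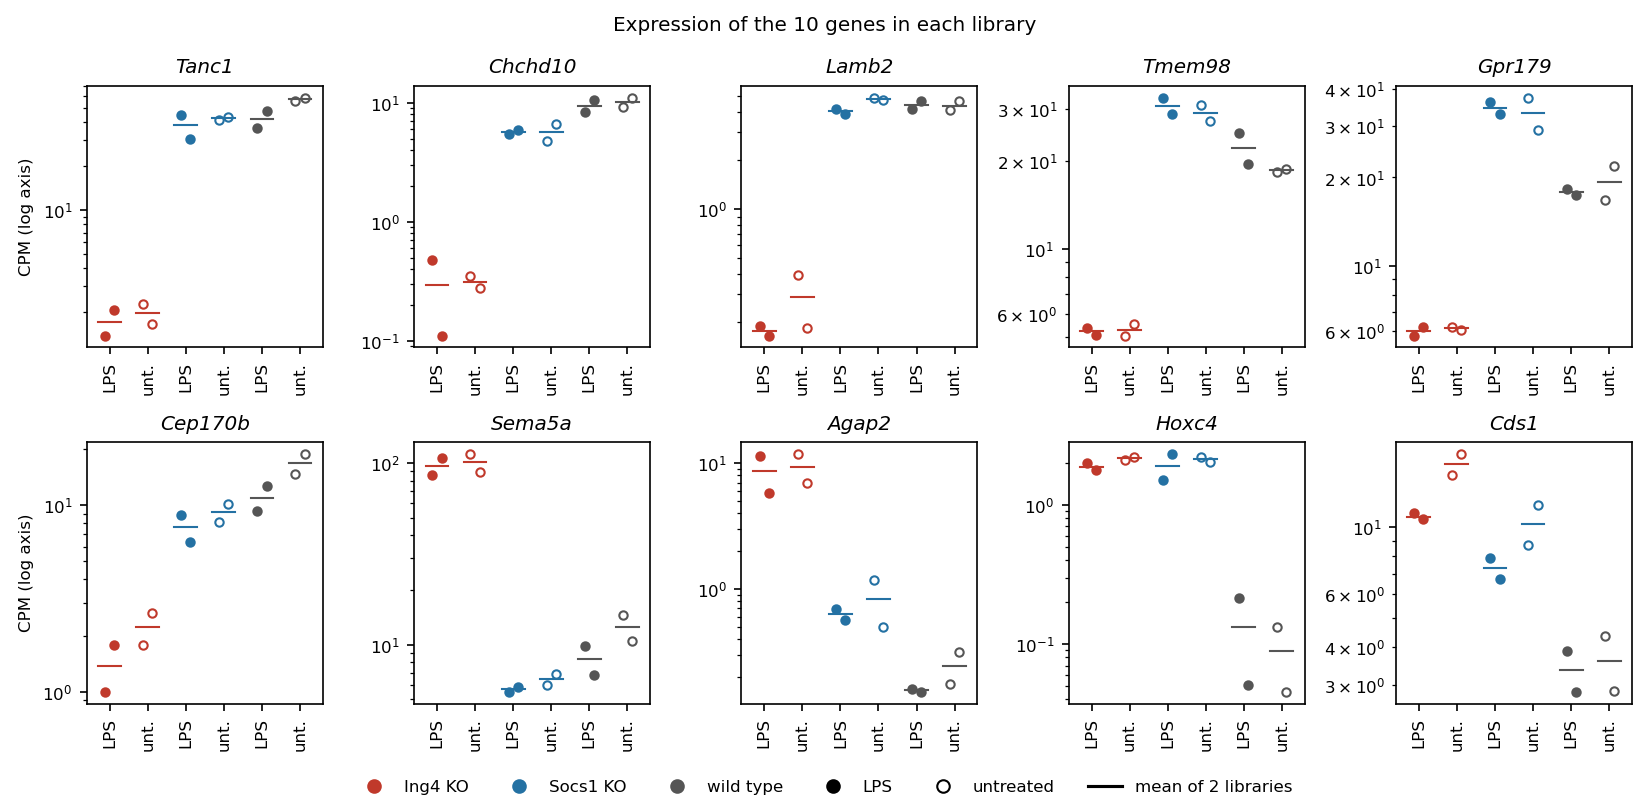
Level of each of the 10 genes in every library, in CPM on a log axis, by genotype and treatment, with a bar at the mean of 2 libraries. The first 6 genes are lowest in the Ing4 knockout, Sema5a and Agap2 are highest there, and Hoxc4 is at about 2 CPM in both knockouts.

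All 10 genes were without overlap between the 4 Ing4 knockout and the 4 wild-type libraries, a pattern that 7.06% of the 12771 tested genes showed. Against the Socs1 knockout 8 of the 10 were without overlap over both treatments, the exceptions being Hoxc4 and Cds1, and 3.56% of tested genes were. The rule chose the genes on these contrasts, so nothing is read from either count. Between the Socs1 knockout and wild type 6 of the 10 were without overlap, namely Chchd10, Tmem98, Gpr179, Agap2, Hoxc4 and Cds1, where 7.8% of tested genes were. The rule drew on the same libraries for that contrast as well. Relative to wild type, the Socs1 knockout shared the direction of the Ing4 knockout without overlap in Chchd10, Agap2, Hoxc4 and Cds1, and had the opposite direction in Tmem98 and Gpr179. Within each treatment Cep170b and Sema5a were also below wild type in the Socs1 knockout, the same direction as the Ing4 knockout for Cep170b and the opposite one for Sema5a.

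**Figure D2:**
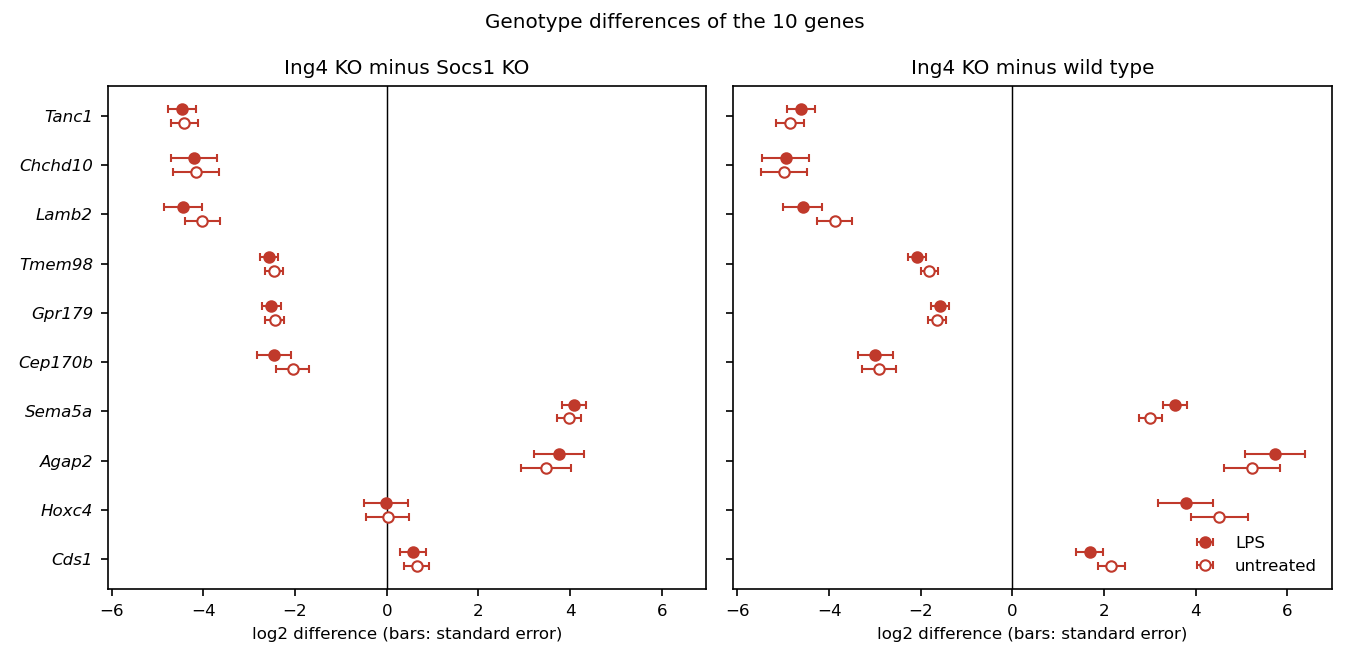
Log2 difference of each of the 10 genes between the Ing4 knockout and the Socs1 knockout (left) and between the Ing4 knockout and wild type (right), after LPS (filled) and untreated (open), with standard errors. Hoxc4 is at -0.01 and 0.02 on the left and at 3.78 and 4.51 on the right.

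Per kilobase of exon, the order of the 10 genes differed between the genotypes. In the untreated Ing4 knockout Sema5a led at 5.41 ± 0.852 CPM per kb, followed by Cds1 (4.09 ± 0.474), Tmem98 (3.24 ± 0.205) and Agap2 (1.58 ± 0.568). Below them came Hoxc4 (0.838 ± 0.0328), Gpr179 (0.643 ± 0.00802), Cep170b (0.276 ± 0.0742), Chchd10 (0.199 ± 0.0325), Tanc1 (0.135 ± 0.0295) and Lamb2 (0.0474 ± 0.0242). Neighbours in that order were more than 1 SD of either gene apart. In untreated wild type Tmem98 led at 11.4 ± 0.208 CPM per kb, followed by Chchd10 (6.43 ± 0.82), Tanc1 (3.91 ± 0.139), Cep170b (2.09 ± 0.369) and Gpr179 (2.02 ± 0.371). Below them came Cds1 (0.914 ± 0.268), Lamb2 (0.715 ± 0.0622), Sema5a (0.669 ± 0.154), Agap2 (0.0415 ± 0.0168) and Hoxc4 (0.0345 ± 0.0238). There Cep170b and Gpr179, then Cds1 and Lamb2, Lamb2 and Sema5a, and Agap2 and Hoxc4, were within 1 SD of one another. Over all 12 libraries the mean log2 CPM of the 10 genes lay between the 13.8th percentile (Hoxc4) and the 42.6th (Sema5a) of tested genes.

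In the authors' deposited tables of the Ing4 knockout against wild type, all 10 genes were among the 117 listed after LPS and the 104 listed untreated. These come from the libraries that chose the genes and are no independent evidence. For each of the 10 genes, in both treatments, the log2 fold in the authors' deposited tables was smaller in size than the difference fitted here. For Agap2 it was 4.10 after LPS and 3.97 untreated, and for Hoxc4 it was 2.51 and 2.93. In the authors' deposited tables of the Socs1 knockout against wild type, Hoxc4 was listed with log2 folds of 2.52 after LPS and 2.92 untreated, and Cds1 with 1.40 untreated. Of the 867 genes in the authors' deposited table of LPS against untreated wild type, 0 were among the 10. Those 867 are a small part of the 54232 genes counted, so nothing is read from that 0.

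The response to LPS was not itself used to choose the genes, although the same libraries enter its test. All 10 stood apart from wild type in both treatments, and such a choice may favour genes that change little with LPS. A low count of calls may follow from it, so nothing is concluded from that count. Chchd10, with 2 to 10 counts per library in the Ing4 knockout, and Lamb2, with 3 to 9, could hardly be called there. The same held in wild type for Hoxc4, with 1 to 4 counts per library, and Agap2, with 3 to 7. At 3 h after LPS, the quasi-likelihood test of edgeR, adjusted by the Benjamini-Hochberg method, called 0 of the 10 genes in any genotype. It called 8.02% of all tested genes in the Ing4 knockout, 1.98% in the Socs1 knockout and 2.89% in wild type. DESeq2 also called 0 of the 10 in each genotype, against 17.1%, 7% and 11.4% of the genes to which it gave an adjusted p. At an unadjusted p under 0.05 edgeR gave 0 in the Ing4 knockout, 0 in the Socs1 knockout and 1 in wild type, which was Sema5a, against 28.2%, 17% and 22.6% of all tested genes. Over the alternatives tried, the lowest adjusted p of any of the 10 was 0.068.

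The fitted changes were mostly small and mostly negative. In the Ing4 knockout 10 of 10 log2 changes were below 0, with a median of -0.16 and a range of -0.68 to -0.02, where the median of all tested genes was -0.00. In the Socs1 knockout 8 of 10 were below 0 (median -0.17, all genes 0.01), and in wild type 7 of 10 (median -0.11, all genes 0.01). Most changes in the Ing4 knockout were smaller than their standard errors, such as -0.02 for Tmem98 (SE 0.19) and -0.06 for Chchd10 (SE 0.566). That of Tanc1 went from -0.20 to 0.06 without the first LPS-treated Ing4 knockout library. No shared direction is therefore read from the signs. Cds1 had a log2 change of -0.57 in the Ing4 knockout (SE 0.282, edgeR adjusted p = 0.22), -0.49 in the Socs1 knockout (SE 0.284, adjusted p = 0.43) and -0.10 in wild type (SE 0.293, adjusted p = 0.88). Cep170b had -0.68 in the Ing4 knockout (SE 0.373, edgeR adjusted p = 0.27), -0.26 in the Socs1 knockout (SE 0.342, adjusted p = 0.76) and -0.60 in wild type (SE 0.34, adjusted p = 0.33). Neither gene passed the test in any genotype. Sema5a had -0.07 in the Ing4 knockout (SE 0.231, edgeR adjusted p = 0.88) and -0.59 in wild type (SE 0.24, adjusted p = 0.19). The LPS response of the Ing4 knockout minus that of wild type ranged from -0.72 for Hoxc4 to 0.52 for Sema5a on the log2 scale, and these differences of responses were not tested.

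**Figure D3:**
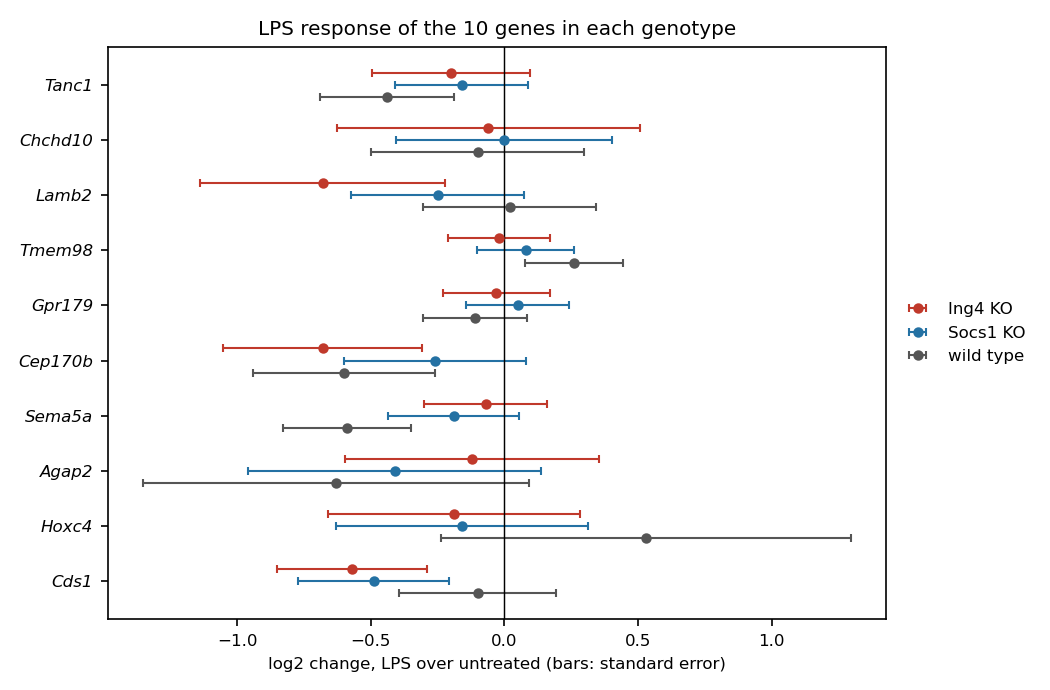
Log2 change of each of the 10 genes with LPS over untreated, in the Ing4 knockout, the Socs1 knockout and wild type, with standard errors. All points of the Ing4 knockout lie between -0.68 and -0.02, and no gene passed the test in any genotype.

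Each gene was then set beside the tested gene with the nearest annotated start on either side, which the rule did not choose. For Hoxc4 this gave Hoxc6, although Hoxc5, which starts further away, ends closer to it. Of these 20 neighbours edgeR called 0 in the Ing4 knockout against wild type, both after LPS and untreated, where it called 0.102% and 0.141% of all tested genes. At an unadjusted p under 0.05 it gave 5 of 20 in each treatment, against 7.09% of all tested genes after LPS and 5.25% untreated. DESeq2 called 1 of 20 in each, Cpq, against 1.1% and 0.987% of all genes. The sign matched that of the adjoining gene of the set in 12 of 20 after LPS and 13 of 20 untreated.

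The neighbours of most genes of the set showed small differences. Usp19, a deubiquitinase gene that starts 71 bp from the end of Lamb2, had a log2 difference of 0.36 after LPS and 0.29 untreated, where Lamb2 was at -4.58 and -3.88. Os9, 2480 bp from Agap2, had -0.05 and -0.03, and A730063M14Rik, 487 bp from Agap2 on its other side, had 0.37 and -0.12. Wdsub1, 6214 bp from Tanc1, had -0.55 and -0.12. These genes lay within 0.55 of 0 on the log2 scale on which Lamb2, Agap2 and Tanc1 differed by more than 3.

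The largest neighbour differences were beside Sema5a, Tmem98 and Hoxc4. Cpq, which encodes a secreted peptidase and lies 386787 bp from Sema5a, had 4.37 and 10.8 CPM after LPS and 3.75 and 12.2 CPM untreated in the Ing4 knockout, against 0.269 and 0.456 CPM after LPS and 0.351 and 0.498 CPM untreated in wild type. Its libraries did not overlap, with a log2 difference of 4.36 after LPS (SE 0.789, edgeR adjusted p = 0.12) and 4.21 untreated (SE 0.767, adjusted p = 0.11). It passed with DESeq2 (adjusted p = 8e-06 after LPS and 6.1e-06 untreated). In edgeR it passed without the filter on low counts (adjusted p = 5.5e-15 and 6.2e-15) and with the compared groups alone (adjusted p = 0.025 and 0.029). Snhg18, a non-coding RNA gene 147 bp from the start of Sema5a on the minus strand, had 0.855 and 0.997 CPM after LPS and 1.48 and 1.52 CPM untreated in the Ing4 knockout, against 0.0537 and 0.406 CPM after LPS and 0.263 and 0.453 CPM untreated in wild type (edgeR adjusted p = 0.71 and 0.85). Sema5a and both of its neighbours thus had higher values in all Ing4 knockout libraries than in any wild-type library. Among the other neighbours, Usp19 beside Lamb2 and Hoxc6 beside Hoxc4 were likewise above wild type without overlap. Myo1d beside Tmem98 was below wild type without overlap. Of all tested genes, 7.06% were without overlap between these genotypes in either direction. On the sides of Tmem98, the myosin gene Myo1d had log2 differences of -1.89 after LPS and -1.49 untreated (edgeR adjusted p = 0.55 and 0.91). The chemokine gene Ccl2, 1213537 bp away, had -3.21 and -3.43 (edgeR adjusted p = 0.53 and 0.7). After LPS it had 44.2 and 91.1 CPM in the Ing4 knockout against 528 and 722 in wild type. Untreated it had 0.218 and 1.29 CPM against 9.4 and 6.84. Without the filter on low counts edgeR passed Ccl2 (adjusted p = 1.7e-29 after LPS and 7e-25 untreated) and Myo1d (1.7e-10 and 1.3e-06). With the compared groups alone Ccl2 passed after LPS (edgeR adjusted p = 0.022).

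**Figure D4:**
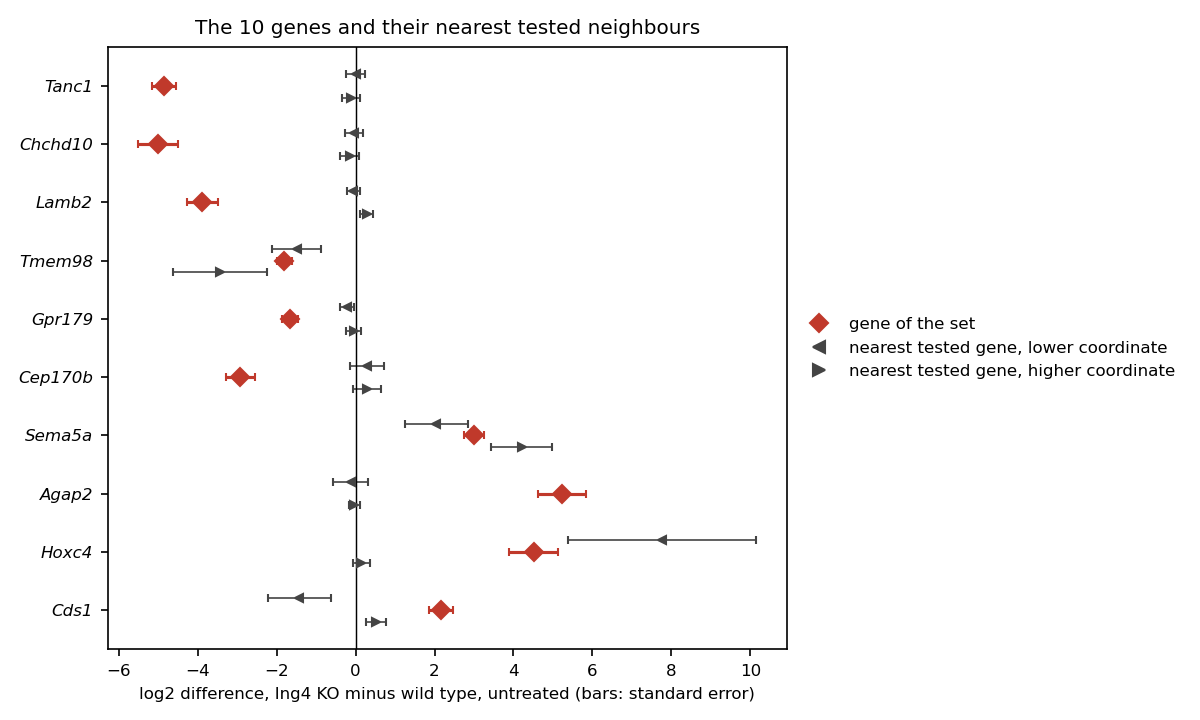
Log2 difference between the untreated Ing4 knockout and untreated wild type for the 10 genes (diamonds) and their tested neighbours (triangles), with standard errors. Neighbours are nearest by annotated start. Neighbours of Tanc1, Chchd10, Lamb2, Gpr179, Cep170b and Agap2 lie near 0, and the neighbour of Hoxc4 far to the right is Hoxc6, which had 0 counts in wild type, so that its fitted value is not a measured fold.

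Within the Hoxc cluster, whose genes adjoin one another on chromosome 15, 3 of 9 genes had counts and 6 were at 0 in all 12 libraries. Hoxc6, 7052 bp from Hoxc4, had 14 and 11 counts after LPS and 28 and 29 untreated in the Ing4 knockout, 0 and 11 after LPS and 0 and 7 untreated in the Socs1 knockout, and 0 in every wild-type library. Hoxc5, named after its values were seen, had 14 and 9 counts after LPS and 12 and 7 untreated in the Ing4 knockout, 0 and 1 after LPS and 0 and 5 untreated in the Socs1 knockout, and again 0 in wild type. In the Socs1 knockout the first library of each treatment held no count of either gene, while Hoxc4 was at 37 and 51 counts in those libraries. Against a floor of 3 counts over the wild-type group, Hoxc6 was at least 8.17-fold higher in the Ing4 knockout after LPS and at least 19.1-fold higher untreated. For Hoxc5 the bounds were at least 7.51-fold and 6.37-fold. The annotated span of Hoxc5, from 102967443 to 103017429, covers Hoxc6, so the division of reads between these genes is uncertain, whereas Hoxc4 overlaps neither.

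**Figure D5:**
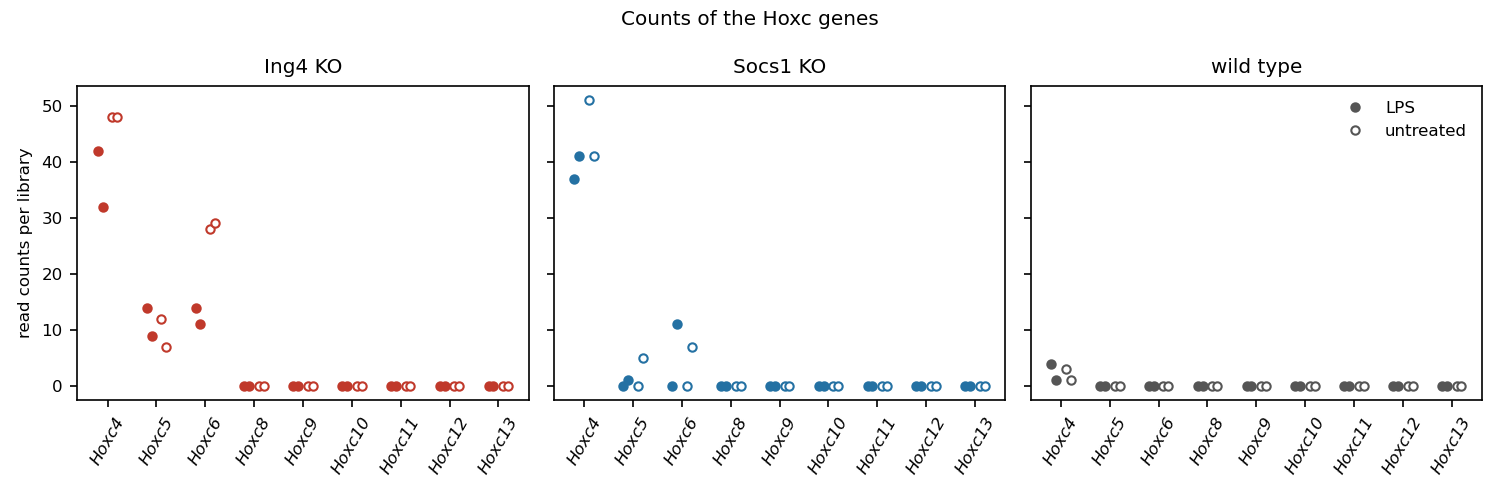
Read counts of the 9 Hoxc genes in each library of the Ing4 knockout, the Socs1 knockout and wild type, LPS-treated (filled) and untreated (open). Hoxc4 is at 32 to 51 counts in both knockouts and 1 to 4 in wild type, and Hoxc5 and Hoxc6 have counts in all Ing4 knockout libraries and none in wild type.

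Relatives and partners of the 10 genes were examined through 10 lists, with 129 tested members in all. In the Ing4 knockout against wild type edgeR called 0 of the 129 after LPS and 0 untreated, against 0.102% and 0.141% of all tested genes. At an unadjusted p under 0.05 it gave 14 after LPS and 8 untreated, against 7.09% and 5.25% of all genes, and DESeq2 called 2 and 1, against 1.1% and 0.987%. The paralogues varied, and none passed the edgeR test. Cds2, the other CDP-diacylglycerol synthase, had a log2 difference of -0.13 after LPS and 0.15 untreated (edgeR adjusted p = 0.94 and 1). Cep170 had -0.03 and 0.16 (adjusted p = 1 after LPS and 1 untreated), and the CHCHD family member Chchd2 had -0.07 and 0.08 (adjusted p = 0.97 and 1). Tanc2, at 0.922 to 1.47 CPM over the Ing4 knockout and 1.71 to 3.44 CPM over wild type, had -1.15 and -0.88 (adjusted p = 0.78 and 1). Agap1, a paralogue of Agap2, had 20.9 and 56.6 CPM after LPS and 52.2 and 143 CPM untreated in the Ing4 knockout, against 21.9 and 11.3 CPM after LPS and 36.3 and 23.5 CPM untreated in wild type. Its log2 difference was 1.22 after LPS (SE 0.855, edgeR adjusted p = 0.88) and 1.71 untreated (SE 0.857, adjusted p = 1), the same sign as Agap2, and it passed only without the filter on low counts (adjusted p = 0.00048 and 3.5e-08). Agap3 had 0.02 in both treatments.

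By list, the medians stayed near that of all tested genes, which was 0.02 after LPS and 0.01 untreated. The 10 tested Tanc scaffold partners had medians of -0.08 after LPS and -0.09 untreated, and the 17 CHCHD and mitochondrial contact site genes -0.12 and -0.16. The 9 laminin, nidogen and laminin receptor genes had -0.28 and -0.30, the lowest of the 10 lists in both treatments. The 15 semaphorin and plexin genes, which include the receptor side of Sema5a, had -0.05 and -0.12, with 0 called. The 18 ARF GTPase-activating genes had 0.06 and 0.18, and the 24 genes around CDP-diacylglycerol 0.01 and 0.03. The 16 Hox genes and cofactors had -0.10 and 0.15, the same with Hoxc5 and Hoxc6 set at their bounds. The 11 genes of the CEP170 list had 0.04 and 0.14, the 6 TMEM98 partners -0.22 and 0.08, and the 3 tested genes of the GPR179 complex -0.05 and 0.06.

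Acap1, an ARF GTPase-activating gene like Agap2, was named after its values were seen. It had 0.333 and 0.0554 CPM after LPS and 0.392 and 0.138 CPM untreated in the Ing4 knockout, 0.489 and 1.29 CPM after LPS and 0.52 and 0.896 CPM untreated in the Socs1 knockout, and 5.16 and 6.04 CPM after LPS and 6.45 and 7.06 CPM untreated in wild type. Both knockouts were below wild type in every library, the opposite direction to Agap2. Its log2 difference in the Ing4 knockout was -4.76 after LPS (SE 0.763, edgeR adjusted p = 0.076) and -4.63 untreated (SE 0.735, adjusted p = 0.07). It passed with DESeq2 (adjusted p = 1.3e-06 after LPS and 1.8e-07 untreated). In edgeR it passed without the filter on low counts (adjusted p = 3.1e-12 and 1.5e-12) and with the compared groups alone (adjusted p = 0.021 and 0.0014). Without the first or without the second LPS-treated Socs1 knockout library its log2 difference was -4.76 after LPS and -4.63 untreated. Those fits left 1 library in that group, so only the size of the difference is given, not whether it passed. The second gene that DESeq2 called after LPS was Arfgap2, at a log2 of 0.55 (adjusted p = 0.036).

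For each gene of the set, the tested gene outside the set with the most similar pattern was sought by the root mean square difference of log2 CPM over the 12 libraries after centring each gene on its mean. For Tanc1, Chchd10 and Lamb2 it was the zinc finger gene Zfp2, at 0.791, 0.869 and 0.659 log2 units. Zfp2 had 0 CPM in the 4 Ing4 knockout libraries, 0.337 to 1.91 CPM in the Socs1 knockout and 0.484 to 1.72 CPM in wild type. At levels this low the distance depends in part on the prior count of 2 in log2 CPM. For Tmem98 and Gpr179 it was Zbtb46, a transcription factor gene known from dendritic cells, at 0.477 and 0.495. Zbtb46 averaged 0.859 CPM after LPS and 0.423 CPM untreated in the Ing4 knockout, 3.1 and 3.18 CPM in the Socs1 knockout, and 2.3 and 2.23 CPM in wild type. It shared with them the order of Ing4 knockout lowest and Socs1 knockout highest in the group means. Tmem98 and Gpr179 were closer to each other, at 0.208, than to any other tested gene, and Tanc1 and Lamb2 likewise, at 0.433, while Chchd10 was closest to Tanc1, at 0.509.

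For Cep170b the most similar gene was the receptor gene Il11ra1 at 0.461, for Sema5a the predicted gene Gm35066 at 0.45, and for Agap2 the gene Palm3 at 0.562. Gm35066 had 1.26 to 1.83 CPM in the Ing4 knockout and 0 in the other 8 libraries. Palm3 had 0.886 to 2.35 CPM in the Ing4 knockout and at most 0.0562 CPM in the other 8. Gm35066 and Palm3 could pass the filter on low counts only through the Ing4 knockout, and their distances also depend in part on the prior count. For Cds1 it was Rnls at 0.318, which averaged 5.06 and 5.44 CPM in the Ing4 knockout, 4.44 and 4.25 CPM in the Socs1 knockout, and 1.68 and 1.74 CPM in wild type, LPS-treated first in each pair.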

How the data were processed

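Poly(A) RNA of RAW 264.7 cells was sequenced as single reads of 75 bases with a stranded kit, per the labels' protocols. The authors deposited whole-number read counts per Ensembl gene for 12 libraries, without scaling. FastQC, HISAT, StringTie, HTSeq and DESeq2 are named in the submitters' processing notes, without versions. Counting options were not given in the sources used here. Those notes list GRCh38, a human build, yet every identifier is of mouse. Of 1084 gene positions the authors gave, 1028 (94.83%) match GRCm38, the build of all coordinates here. The authors also deposited tables of log2 fold changes and adjusted p-values per comparison, whose 60 columns of values per sample were not used. The reference tables gave a symbol to 54079 of the 54232 identifiers.

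The 10 genes and all gene lists were chosen with earlier results of these data known. Counts were analysed in R 4.3.3 with edgeR 4.0.16 and limma 3.58.1: low-count filtering by group, scaling by trimmed mean of M-values (TMM), and 1 robust quasi-likelihood fit with a mean for each of 6 groups (biological coefficient of variation 0.289). P-values were adjusted by Benjamini-Hochberg over the 12771 genes that entered the fit, with a threshold of 0.05. Standard errors are the log2 value over the root of F. All adjusted p in the text are edgeR's unless DESeq2 1.42.0 is named. The fit was tested on simulated data. Libraries of a group differed by more than counting noise (chi-square per degree of freedom 36.38 to 313.7), so none was taken as a repeat. Log2 CPM used a prior count of 2.

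The named genes were the 10 genes, their nearest tested neighbour on each side by annotated start, and called members of the lists (0 were called). The most similar gene by pattern and the targeted genes were named as well. The most similar gene of Hoxc4 is not reported here. Alternatives were DESeq2, other scalings, no filter, a fit to the compared groups only, replicate blocks and leaving out each library. The comparison of the Socs1 knockout with wild type under them was chosen after seeing the data.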

Additional observations from a re-analysis of the deposited data

How the results depend on the processing

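The 10 genes kept 0 LPS calls in each genotype under every alternative run, leave-one-out included (0 to 0), and the neighbours 0 to 0 under leave-one-out. Of their untested differences between genotypes, 10 leave-one-out values and 0 others moved by more than the SD between replicates. The moved values concern Chchd10 and Lamb2, and Hoxc4 against wild type, whose log2 difference in the Ing4 knockout lay between 3.10 and 5.06 after LPS and 3.97 and 5.40 untreated. Upper-quartile scaling shifted the median LPS change of all genes by -0.128 in the Ing4 knockout, -0.136 in the Socs1 knockout and -0.114 in wild type.

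Counts over all genes depended on the method, and the cause was not tested. For LPS in the Ing4 knockout, the Socs1 knockout and wild type, edgeR called 1024, 253 and 369 genes. DESeq2 called 2187, 842 and 1426, no filter 2588, 1462 and 2080, and the compared groups alone 1844, 0 and 2199. For the Ing4 knockout against wild type, edgeR called 13 genes after LPS and 18 untreated, DESeq2 140 and 126, no filter 539 and 516, and the compared groups alone 75 and 176. Family genes called numbered 2 and 1 with DESeq2, 8 and 8 with no filter, and 1 and 3 with the compared groups alone. Neighbours called numbered 1 and 1, 4 and 4, and 2 and 2 under those alternatives, and the neighbours called without the filter were Ccl2, Cpq, Hoxc6 and Myo1d.

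Leaving out 1 library gave 68 to 2710 LPS calls in the Ing4 knockout, 44 to 2111 in the Socs1 knockout and 28 to 1933 in wild type. For the Ing4 knockout against wild type it gave 4 to 38 after LPS and 1 to 47 untreated, and 0 to 1 family genes in each treatment. The highest counts came without an LPS-treated Socs1 knockout library. Where 1 library was left in a group, it was assumed to vary like the others.

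Same-numbered libraries deviated together within a genotype (correlation across genes 0.447 to 0.601) but not between genotypes (-0.129 to 0.156), so the numbers do not pair genotypes. With a replicate block within each genotype LPS called 3471, 769 and 1811 genes, and 0 of the 10. With the replicate number as a block over all groups the counts were 1250, 261 and 445 for LPS, and 15 after LPS and 24 untreated for the Ing4 knockout against wild type.

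With 2 libraries a group, single genes of low count have wide errors, and Chchd10, Lamb2, Agap2 and Hoxc4 rest on 10 or fewer counts per library in their lower genotype.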
